A study of Rattus norvegicus with 36 samples.

Results

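The response of the rat lung to crystalline silica was compared between its first day and its sixth month, gene by gene. DQ-12 is a ground quartz dust used as a reference for silica toxicity. Female Sprague Dawley rats, 13 weeks old, received 10 mg/rat of it in saline by endotracheal instillation, or the saline vehicle alone, and were killed 1 day (D1), 30 days (D30) or 180 days (D180) later. Each of the 6 groups held 6 rats, each rat gave 1 array of total RNA from its accessory lung lobe, and no rat was measured at more than 1 time. The comparison is between the 24 arrays of D1 and D180 of the 36 in all. The 12 arrays of D30 entered the model's filter, normalization and estimate of spread, and their own exposure effect was used to follow the genes picked out. The rats of D180 were older than those of D1 when killed, and each time had its own vehicle rats.

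The quantity described is the exposure effect at D180 (DQ-12 minus vehicle) minus the exposure effect at D1, called the interaction below. It is in log2 units of array signal, so that a value of 1 means that the ratio of DQ-12 to vehicle was 2-fold larger at D180 than at D1. A gene was called where the adjusted p from limma (Benjamini-Hochberg) was under 0.05 and the size at least 1 on the log2 scale, and the same rule was used for the effect at each time. Acute-only genes were called at D1, had an adjusted p of 0.05 or more at D180, and had a called interaction against the D1 change. Chronic-only genes were the mirror image, called at D180. Genes of equal size were called at both ends in 1 direction with the whole 95% confidence interval of the interaction inside a 2-fold difference.

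As background, inhaled quartz is taken up by alveolar macrophages, damages their lysosomes and starts an inflammatory reaction that draws in neutrophils. Because the lung cannot dissolve or clear the particles readily, the reaction persists: macrophages load with particles and surfactant lipid, lymphocytes and plasma cells collect, and fibrous nodules may form. Dividing cells after an acute lung injury include alveolar epithelial cells that replace the lost lining as well as macrophages and other cells.

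All groups had the signal pattern of lung. Mean log2 signals of Sftpc, the surfactant protein C gene of alveolar type 2 cells, lay between 18.38 and 18.42, and those of Ager, a marker of alveolar type 1 cells, between 16.81 and 17.33. Between 51.3% and 75.5% of probes were well above background on the 24 arrays, and no 2 arrays carried identical values. The arrays of D1 had been scanned on 3 dates, and the only date that held both groups held 1 vehicle rat (vehicle replicate 3) with all 6 DQ-12 rats. The arrays of D180 had been scanned on 6 dates, of which 2 held both groups, with 4 vehicle and 4 DQ-12 rats. For most named genes the interaction with scan date as a block in the model is therefore given beside the result, followed by its limma adjusted p. The list of skeletal and cardiac muscle genes had a mean log2 signal of 9.45 on 1 DQ-12 array of D1 (replicate 5) and of 9.97 on 1 vehicle array of D180 (replicate 5), against medians of 7.67 and 7.62 in these groups. Its part in the results was not tested.

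Of 23940 genes tested, 372 had a called interaction (1.55%). The effect of DQ-12 was more positive at D180 for 278 genes (1.16%) and more negative for 94 (0.393%). With arrays scaled to their 75th percentile in place of quantile normalization the split was 339 to 59. With slide as a fixed block it turned, to 103 more positive and 155 more negative. At D1, 484 genes were higher (2.02%) and 252 lower (1.05%) in the DQ-12 rats, and at D180, 684 were higher (2.86%) and 185 lower (0.773%). Both times called 243 genes, 239 of them in the same direction. Across the 23940 genes the effects at D1 and D180, which share no rats, had a Pearson correlation of 0.373 and a Spearman correlation of 0.313, given as a description since genes are not independent replicates.

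The 1362 genes called at either end fell into unequal groups. There were 50 acute-only genes, 25 higher and 25 lower at D1. There were 158 chronic-only genes, 146 higher and 12 lower at D180. Genes of equal size numbered 62, with 53 higher and 9 lower. A further 20 genes were higher at both ends and more so at D180, 7 were higher at both ends and more so at D1, and 4 changed in opposite directions. The other 1061 could not be placed: 443 were called at D1 only, 468 at D180 only and 150 at both, and they met the criteria of no class. Among them 31 had a called interaction. A gene called at 1 end alone was thus most often not shown to differ between the ends.

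**Figure D1:**
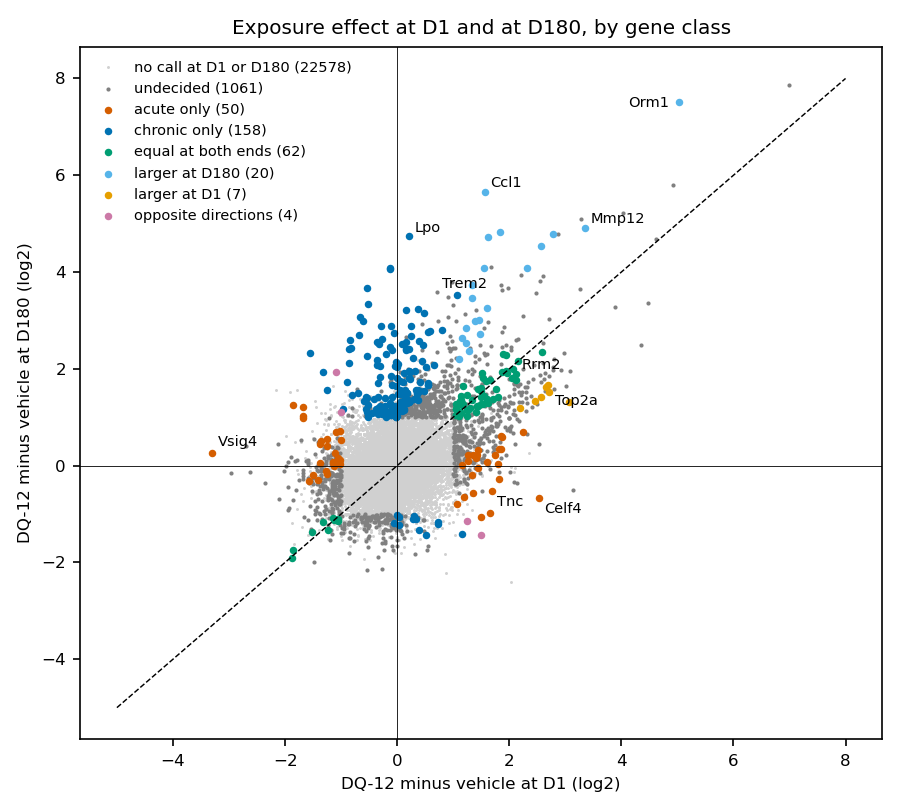
Each point is 1 of the 23940 genes, placed by its DQ-12 minus vehicle difference at D1 (x axis, log2) and at D180 (y axis, log2), with 6 rats in each group; colours give the class and the dashed line marks equal effects. The 158 chronic-only genes form a column above and below 0 at D1, the 50 acute-only genes a row near 0 at D180, and the 62 genes of equal size lie along the line.

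The interaction can arise in the DQ-12 rats or in the vehicle rats. For 72 of the 372 genes the vehicle groups differed between D1 and D180 by more than the DQ-12 groups did, and 102 were called at neither end. All 4 groups had at least 3 arrays above background for 298 of the 372. Among the genes more negative at D180, Mrpl43, which encodes a mitochondrial ribosomal protein, had the largest difference of those measured in all groups and shows how such a value can be made up. Its log2 signals ran from 3.32 to 8.69 (median 4.84) in the vehicle rats and from 5.15 to 9.02 (median 7.31) in the DQ-12 rats at D1. They ran from 4.97 to 9.19 (median 8.34) in the vehicle rats and from 4.85 to 5.34 (median 5.15) in the DQ-12 rats at D180. Both pairs of groups overlapped, and the interaction was -4.44 ± 1.23 (SE; limma adjusted p = 0.0307), with -4.82 and an adjusted p of 0.296 under a scan date block.

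With scan date as a block, 107 interactions were called, 54 of them among the 372, and 370 of the 372 kept their sign. Of the 50 acute-only genes, 49 kept the sign of the interaction and 3 were still called for it. Of the 158 chronic-only genes, 157 kept the sign and 33 were still called. Of the 62 genes of equal size, 3 met that rule under the block. Set against the single vehicle rat scanned with them, the 6 DQ-12 rats of D1 had a median difference of 1.24 for the acute-only genes that were higher, against 1.53 with the other 5 vehicle rats, and of -1.18 against -1.34 for those that were lower. The sign was that of the full comparison for 24 of 25 genes in each of these groups, against 17381 of all 23940 genes. These values are a description, since the same arrays took part in choosing the genes.

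**Figure D2:**
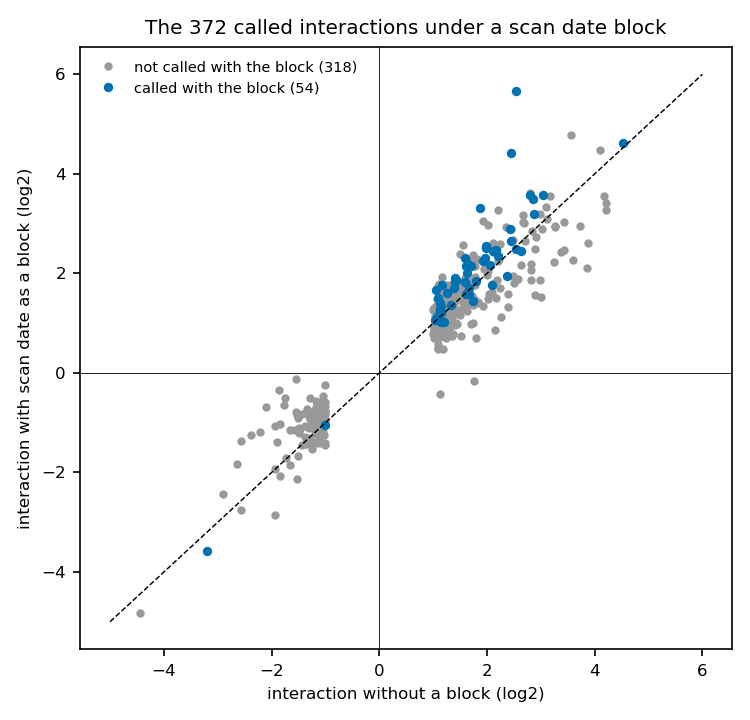
The 372 called interactions without a block (x axis, log2) and with scan date as a block in the same model (y axis, log2); blue points are the 54 that were still called and grey points the 318 that were not. Nearly all points lie in the quadrants of equal sign, and most of the blue points are genes more positive at D180.

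On the acute side, a list of cell cycle genes had the most interactions called more negative at D180 of all lists. Like the others, it was chosen with earlier results of these data known. Of its 24 genes, 20 were higher at D1, 6 at D30 and 18 at D180. The list medians were 2.00, 0.65 and 1.32 on the log2 scale, against medians over all genes of -0.01, -0.02 and -0.03. No gene of the list had a larger effect at D180 than at D1. The interaction was called for 4 genes, all more negative, against 0.393% of all genes. The list median of the interaction was -0.69 against -0.04 over all genes. Under the scan date block 18 genes were called at each end and none for the interaction, and the list median was -0.41.

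Cdc20, the activator of the anaphase-promoting complex that releases cells from metaphase, was the acute-only gene of the list. Its log2 signals at D1 ran from 8.10 to 8.68 (median 8.54) in the vehicle rats and from 9.60 to 10.18 (median 9.82) in the DQ-12 rats, with no overlap. At D180 they ran from 7.65 to 8.73 (median 8.11) and from 8.20 to 8.74 (median 8.43), and only 1 DQ-12 rat lay above all vehicle rats. The effects were 1.44 ± 0.15 (SE) at D1, -0.02 at D30 and 0.32 ± 0.15 at D180, and the interaction was -1.12 ± 0.21 (limma adjusted p = 0.00162), with -1.18 and an adjusted p of 0.0929 under the scan date block.

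Top2a, the topoisomerase that untangles replicated chromosomes, was raised at both ends and more so at D1. At D1 the vehicle rats had 6.42 to 7.24 (median 6.80) and the DQ-12 rats 9.03 to 9.89 (median 9.46) on the log2 scale. At D180 the vehicle rats had 5.97 to 6.61 (median 6.15) and the DQ-12 rats 7.42 to 8.0 (median 7.70). The groups did not overlap at either time, and the effect passed from 2.71 through 0.53 at D30 to 1.51, with an interaction of -1.20 ± 0.21 (limma adjusted p = 0.000644, or -1.17 and 0.119 under the block). Tk1, the thymidine kinase of dividing cells, had effects of 2.46, 0.76 and 1.34 and an interaction of -1.12 ± 0.23 (limma adjusted p = 0.00316, or -1.28 and 0.11 under the block). Nusap1, a spindle protein, had 2.20, 0.71 and 1.19 and an interaction of -1.01 ± 0.27 (limma adjusted p = 0.0259, or -0.67 and 0.617 under the block).

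Further genes of dividing cells outside the list were also larger at D1. Ect2, which is needed for cytokinesis, had effects of 2.69 at D1 and 1.67 at D180 and an interaction of -1.01 ± 0.26 (limma adjusted p = 0.0213). Pbk, a mitotic kinase, had 3.06 and 1.32 and an interaction of -1.74 ± 0.49 (limma adjusted p = 0.0354), and 1 vehicle rat of D180 lay at 6.74, above every DQ-12 rat of that time (5.84 to 6.33). Arhgef39 had 2.57 and 1.43 and an interaction of -1.15 ± 0.33 (limma adjusted p = 0.0346). None of the 3 was called under the scan date block, where their interactions were -0.78, -0.50 and -0.78.

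Other acute-only genes also belong to replication, repair and meiotic recombination. Mnd1, a partner of the recombinases that pair chromosomes, ran from 4.98 to 5.79 (median 5.19) in the vehicle rats and from 6.49 to 7.51 (median 7.22) in the DQ-12 rats at D1, and from 5.29 to 6.15 (median 5.79) and 5.81 to 6.47 (median 6.00) at D180. The groups were apart at D1 and overlapped at D180, and the interaction was -1.5 ± 0.24 (limma adjusted p = 0.000283, or -0.91 and 0.247 under the block). Brip1, a helicase of interstrand crosslink repair, had effects of 1.88 at D1 and 0.59 at D180, and Parpbp, a regulator of homologous recombination, 2.25 and 0.69. Their interactions were -1.28 ± 0.35 and -1.56 ± 0.46, with limma adjusted p of 0.0285 and 0.0425. Under the block Brip1 had -0.51 (limma adjusted p = 0.785) and Parpbp -1.14 (limma adjusted p = 0.594). Troap, a protein of the spindle poles, had 1.86 and 0.62 and an interaction of -1.24 ± 0.32 (limma adjusted p = 0.02, or -1.53 and 0.166 under the block). Mybl1, a transcription factor of the Myb family, had 1.81 and 0.03, but its vehicle level was itself 1.08 higher at D180 than at D1, and the interaction of -1.78 ± 0.36 (limma adjusted p = 0.0026) became -0.63 under the block. Lrr1, a component of a ubiquitin ligase of replicating chromatin, was above background on 1 array in all, in the DQ-12 rats of D1, where its signal was at least 1.67-fold higher than in the vehicle rats. Such a bound sets a gene not well above background at the lowest signal of the probes that were.

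Other cell cycle genes met the rule for equal size in the main fit. Of the 62 genes of that class, 3 met the rule with scan date as a fixed block and 2 with slide as a fixed block. Rrm2, the small subunit of ribonucleotide reductase, ran from 10.08 to 11.03 (median 10.47) in the vehicle rats and from 11.77 to 13.07 (median 12.72) in the DQ-12 rats at D1, and from 9.40 to 10.12 (median 9.59) and from 11.15 to 12.10 (median 11.66) at D180. The groups did not overlap at either time. Its effects were 2.12 ± 0.21 and 1.90 ± 0.21, the interaction was -0.22 with an interval from -0.84 to 0.40, and the effect at D30 was 1.34. Ccne1, the cyclin that drives entry into S phase, had effects of 2.59 and 2.36 with an interval of the interaction from -0.85 to 0.38. Kif11, the motor that pushes spindle poles apart, had 1.96 and 1.91 (-0.82 to 0.74), and Kif22, a chromosome motor, had 2.16 and 2.16 (-0.79 to 0.78). Cks2, a subunit of cyclin-dependent kinases, had 2.07 and 2.01 (-0.71 to 0.59). At D30 their effects were 1.47, 0.73, 0.31 and 1.04. Mki67, the proliferation antigen Ki-67, could not be placed: its effects were 1.85 and 1.22 and the interval ran from -1.04 to -0.22. The lowest DQ-12 value at D1 of Rrm2, Cks2, Mnd1 and Parpbp came from the same rat (replicate 2).

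Promoters of some of these genes are shown because the genes moved together at D1. Genes of late S phase and mitosis are known for CCAAT boxes close to a cell cycle homology region. The sequences are the 150 bases before the start site, 5′ to 3′ on the gene's strand, from RefSeq on build GRCr8, with the CCAAT box (CCAAT, either strand) and the cell cycle homology region (TTTGAA, either strand) in capitals. The CCAAT box stood in the 250 bases before the start of 15 of the 20 list genes found in the promoter table (75%), against 34.3% of all 27457 promoters, and the homology region in 7 of 20 (35%) against 16%. Among the 6 genes larger at D1 that were found, 3 held the first and 4 the second. The higher acute-only genes lay nearer to all promoters, with the first in 8 of 19 (42.1%) and the second in 4 of 19 (21.1%). The higher genes of equal size had 19 of 42 (45.2%) and 8 of 42 (19%). The acute-only genes that fell had 3 of 14 (21.4%) and 5 of 14 (35.7%), so they held the homology region about as often as the cell cycle list. The acute-only Cdc20 and the larger-at-D1 Top2a held both within the window shown, and Kif11, of equal size, held a CCAAT box only. A match is a run of letters and was not tested as a binding site.
Cdc20 (chr5:137255800-137255949, minus strand): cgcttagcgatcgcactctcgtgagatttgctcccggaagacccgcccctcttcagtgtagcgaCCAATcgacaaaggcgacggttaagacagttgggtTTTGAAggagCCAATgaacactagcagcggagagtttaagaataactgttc
Top2a (chr10:84473094-84473243, minus strand): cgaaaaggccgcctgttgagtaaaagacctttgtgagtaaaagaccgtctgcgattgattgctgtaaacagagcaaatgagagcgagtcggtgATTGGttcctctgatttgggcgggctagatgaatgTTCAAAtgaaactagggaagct
Kif11 (chr1:244536717-244536866, plus strand): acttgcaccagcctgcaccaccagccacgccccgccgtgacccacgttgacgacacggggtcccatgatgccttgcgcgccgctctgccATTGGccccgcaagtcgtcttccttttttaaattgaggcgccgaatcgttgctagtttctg

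Genes on the acute side were not all of the cell cycle. Tnc encodes tenascin C, a matrix glycoprotein of wounded tissue. In the main fit it was the only called interaction of 25 tested genes for collagens and myofibroblasts. Its log2 signals at D1 ran from 6.73 to 8.45 (median 7.38) in the vehicle rats and from 8.76 to 10.00 (median 9.03) in the DQ-12 rats, and at D180 from 6.32 to 7.72 (median 7.22) and from 6.01 to 7.19 (median 6.46). All DQ-12 rats lay above the vehicle rats at D1, while 3 lay below all vehicle rats at D180. The effects were 1.68, 0.02 and -0.53 at the 3 times, and the interaction was -2.21 ± 0.36 (limma adjusted p = 0.000286), with -1.19 and an adjusted p of 0.258 under the block. The list as a whole had medians of 0.19 at D1, 0.00 at D30 and -0.22 at D180. Under the block 1 gene of the list other than Tnc had an interaction called more negative. Col1a1, the main chain of type I collagen, had effects of 0.19 and 0.08 and an interval of the interaction from -0.67 to 0.43, while the vehicle rats differed by -1.29 between D1 and D180.

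Of the other named genes that were more negative at D180, Psapl1, a relative of the prosaposin gene, had effects of 1.06 at D1 and -0.80 at D180 and an interaction of -1.86 ± 0.43 (limma adjusted p = 0.00862). The vehicle level of Psapl1 differed by 1.39 from D1 to D180, more than the DQ-12 level did (-0.47). At D1 its highest value was that of a vehicle rat (6.40, replicate 3). Under the scan date block the interaction of Psapl1 was -0.34 (limma adjusted p = 0.866) and its effect at D1 turned to -0.39. Prom2, a membrane protrusion protein of epithelia, had 0.39 and -1.34 and an interaction of -1.73 ± 0.37 (limma adjusted p = 0.00494, or -1.71 and 0.207 under the block). Slc5a1, the sodium and glucose cotransporter, had 0.72 and -0.95 and an interaction of -1.66 ± 0.46 (limma adjusted p = 0.0288, or -1.15 and 0.485 under the block). Psapl1 was acute-only and Prom2 chronic-only, while Slc5a1 was called at neither end.

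Timp1, an inhibitor of matrix metalloproteinases, had effects of 1.5 at D1 and 0.57 at D180, and its interaction of -0.93 ± 0.26 (limma adjusted p = 0.0312) missed the size threshold. Plek2, a pleckstrin family protein of the cell membrane, had 1.82 at D1, 0.08 at D30 and 0.35 at D180, and an interaction of -1.47 ± 0.27 (limma adjusted p = 0.00099, or -1.13 and 0.197 under the block).

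Celf4, an RNA-binding protein best known from neurons, had one of the acute interactions that were still called under the block. At D1 its log2 signals ran from 3.57 to 5.74 (median 4.07) in the vehicle rats and from 6.53 to 7.31 (median 6.71) in the DQ-12 rats, and at D180 from 3.61 to 6.06 (median 4.74) and from 2.61 to 4.87 (median 4.23). The groups were apart at D1 and overlapped at D180, where 4 vehicle and 3 DQ-12 arrays were above background. Its interaction was -3.20 ± 0.50 (limma adjusted p = 0.000182), with -3.57 and an adjusted p of 0.0176 under the block.

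The acute-only genes that fell included a receptor of resident macrophages. Vsig4 encodes the complement receptor CRIg, which binds C3 fragments on resident tissue macrophages. Its log2 signals at D1 ran from 7.79 to 9.81 (median 9.14) in the vehicle rats and from 4.21 to 8.54 (median 5.58) in the DQ-12 rats. At D180 they ran from 6.13 to 9.96 (median 9.18) and from 8.41 to 9.89 (median 9.07). Of the DQ-12 rats of D1, 5 lay below all vehicle rats and 1 (replicate 6) lay among them, and 1 vehicle rat of D180 (replicate 3) lay below all others of that time. At D30, 1 vehicle rat (replicate 1) stood at 5.33, against 8.51 to 10.14 in the other vehicle rats. The effects were -3.30 ± 0.64 at D1, 0.56 at D30 and 0.26 at D180, and the interaction was 3.56 ± 0.91 (limma adjusted p = 0.0186), with 4.79 and an adjusted p of 0.151 under the block. In whole tissue, fewer cells of a type and less RNA per cell cannot be told apart.

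Cnr1, the cannabinoid receptor CB1, ran from 7.03 to 7.93 (median 7.29) in the vehicle rats and from 5.02 to 6.17 (median 5.89) in the DQ-12 rats at D1, and from 7.12 to 8.28 (median 7.81) and from 6.77 to 7.99 (median 7.37) at D180. The groups were apart at D1 only, and the interaction was 1.26 ± 0.37 (limma adjusted p = 0.0429, or 0.95 and 0.606 under the block). Pdcd1, the checkpoint receptor PD-1 of activated T cells, had effects of -1.0 at D1 and 0.54 at D180 and an interaction of 1.54 ± 0.44 (limma adjusted p = 0.0343, or 1.58 and 0.408 under the block), with overlapping groups at both times.

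**Figure D3:**
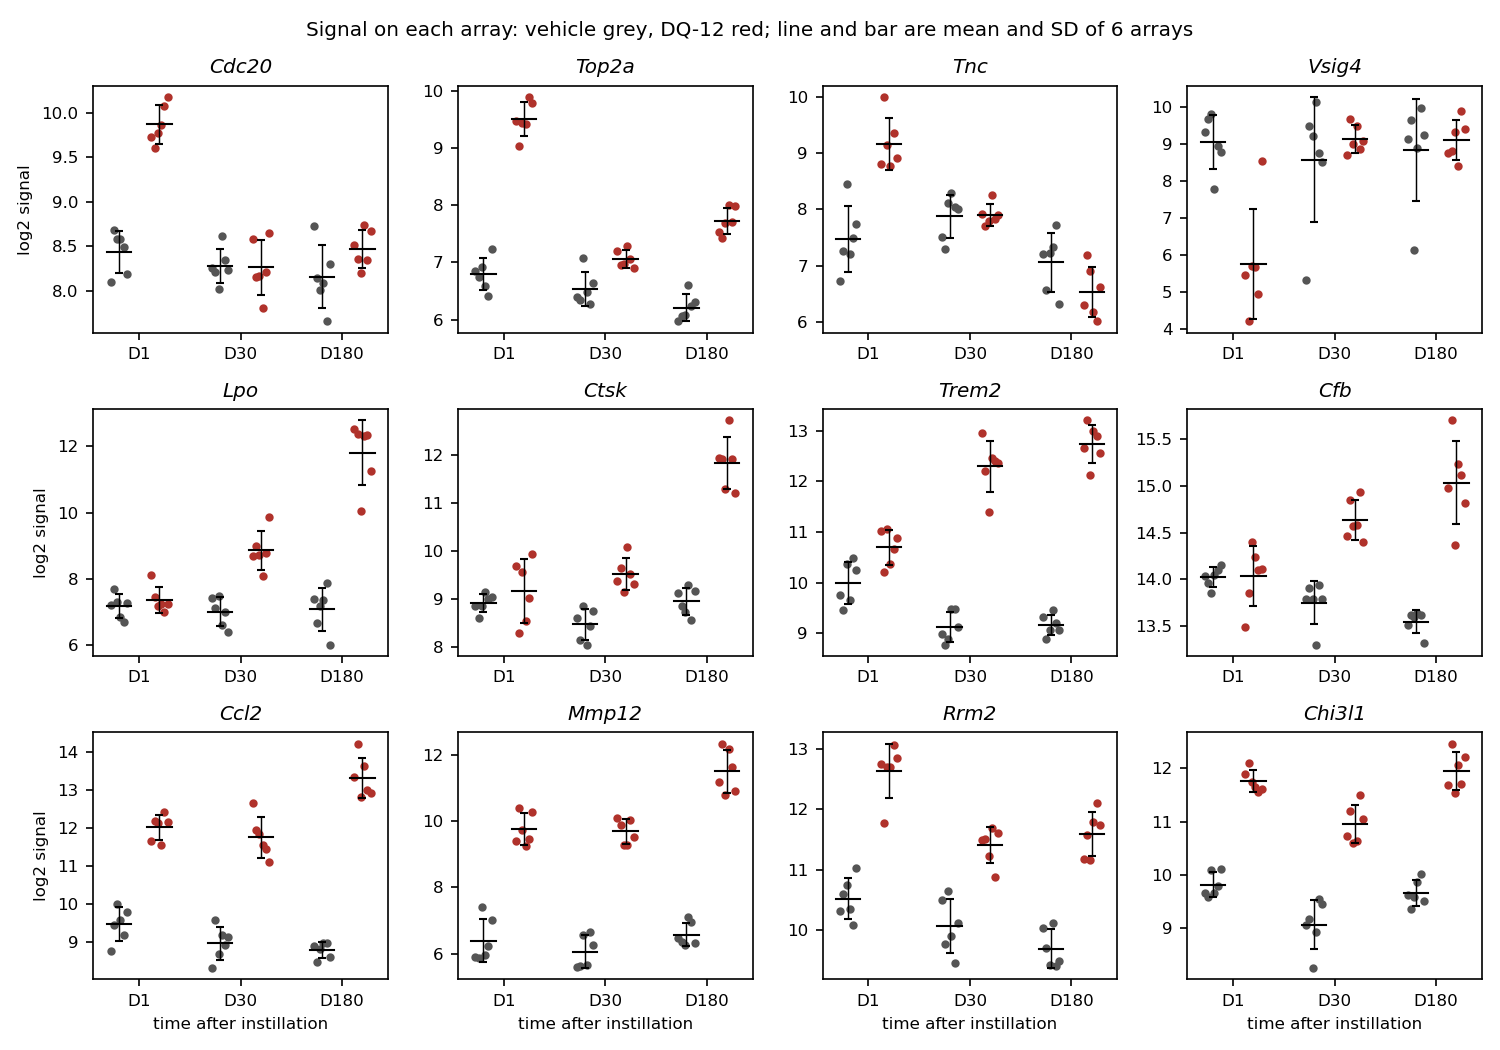
Log2 array signal of 12 genes (y axes) in each of the 36 rats, by time after instillation (x axes), with vehicle rats in grey and DQ-12 rats in red; black lines and bars are the mean and SD of 6 rats. Cdc20 and Tnc were apart from vehicle only at D1, Lpo and Ctsk rose with time, Ccl2 and Mmp12 were apart at all times and farthest at D180, and Chi3l1 was about as far apart at each time.

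Genes of macrophage lipid handling and particle uptake stood on the chronic side. Of 23 genes on that list, 3 were higher at D1, 11 at D30 and 11 at D180, and the list medians were -0.04, 0.80 and 0.88. The interaction was called for 8 genes, all more positive at D180, against 1.16% of all genes. It lay above 0 for 22 of 23, against 11149 of all 23940 genes. These counts are a description, since the list was chosen with earlier results of these data known. Under the scan date block 5 genes were called.

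Trem2, the lipid-sensing receptor of macrophages, had one of the smallest adjusted p among all interactions. At D1 its log2 signals ran from 9.47 to 10.49 (median 10.00) in the vehicle rats and from 10.21 to 11.05 (median 10.78) in the DQ-12 rats, with 4 DQ-12 rats above all vehicle rats. At D180 they ran from 8.89 to 9.46 (median 9.13) and from 12.13 to 13.21 (median 12.78), without overlap. The effects were 0.71, 3.17 and 3.58, so that most of the change was present by D30, and the interaction was 2.87 ± 0.30 (limma adjusted p = 7.57e-07, or 3.20 and 0.00208 under the block). Because its adjusted p at D1 was 0.0208, Trem2 was not chronic-only by the rule.

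Ctsk encodes cathepsin K, a lysosomal collagen-cleaving protease of osteoclasts and activated macrophages. Its log2 signals ran from 8.60 to 9.14 (median 8.92) and from 8.27 to 9.92 (median 9.28) at D1, with DQ-12 rats on both sides of the vehicle rats, and from 8.55 to 9.27 (median 8.98) and from 11.20 to 12.72 (median 11.92) at D180. The effects were 0.25, 1.04 and 2.88, and the interaction was 2.63 ± 0.34 (limma adjusted p = 1.63e-05, or 2.45 and 0.0317 under the block). Cd68, a lysosomal membrane protein of all macrophages, had effects of 0.14, 1.16 and 1.55 and an interaction of 1.41 ± 0.21 (limma adjusted p = 8.5e-05, or 1.82 and 0.0056 under the block). Atp6v0d2, a proton pump subunit of osteoclasts and macrophages, had 0.22, 1.55 and 2.42 and an interaction of 2.20 ± 0.30 (limma adjusted p = 3.77e-05, or 2.34 and 0.0175 under the block).

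The scavenger receptor gene Marco was above background on none of the 6 DQ-12 arrays and 2 vehicle arrays at D1, and no size is given for that time. At D30 it was above background on 4 DQ-12 arrays and no vehicle array, with a signal at least 3.139-fold higher in the DQ-12 rats. At D180 all 6 DQ-12 arrays were above background, and their log2 signals of 6.15 to 6.78 lay above all vehicle rats (2.81 to 5.14). Fabp4, a fatty acid carrier, had effects of 0.88, 1.12 and 2.53 and an interaction of 1.65 ± 0.35 (limma adjusted p = 0.00484, or 2.19 and 0.0302 under the block). Acp5, the tartrate-resistant acid phosphatase, had -0.25, 0.48 and 0.88 and an interaction of 1.14 ± 0.19 (limma adjusted p = 0.000295, or 1.03 and 0.0401 under the block). Rab7b, a GTPase of late endosomes outside the list, had 0.25, 1.57 and 2.68 and an interaction of 2.44 ± 0.28 (limma adjusted p = 1.92e-06, or 2.64 and 0.00256 under the block).

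Of 23 genes of a lysosome list, 3 were higher at D180, against 2.86% of all genes. The interaction was called more positive for 3, Ctsd and Npc1 among them, against 1.16% of all genes. Ctsd, the aspartic protease cathepsin D, had effects of -0.22 and 0.89 and an interaction of 1.11 ± 0.22 (limma adjusted p = 0.00259, or 1.04 and 0.0886 under the block), and Npc1, the membrane protein that exports cholesterol from lysosomes, had -0.69 and 0.43 and an interaction of 1.11 ± 0.25 (limma adjusted p = 0.00655, or 0.98 and 0.296 under the block). Npc2, its soluble partner, was of equal size instead: the effect was 1.05 at both ends, 0.68 at D30, and the interval of the interaction ran from -0.39 to 0.38.

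Lpo had the largest interaction among the genes measured in all groups. It encodes lactoperoxidase, an antimicrobial enzyme secreted by airway glands. Its log2 signals at D1 ran from 6.68 to 7.70 (median 7.24) in the vehicle rats and from 7.01 to 8.12 (median 7.23) in the DQ-12 rats, and at D180 from 6.00 to 7.87 (median 7.26) and from 10.05 to 12.53 (median 12.33). Only 1 DQ-12 rat was above all vehicle rats at D1 and all 6 were at D180. The effects were 0.20, 1.86 and 4.74, and the interaction was 4.53 ± 0.48 (limma adjusted p = 7.57e-07, or 4.62 and 0.00382 under the block).

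Further chronic-only genes follow, and the cells that their RNA came from were not measured. Ubd, a ubiquitin-like protein induced by interferon and tumour necrosis factor, ran from 9.27 to 9.90 (median 9.58) and from 9.44 to 10.57 (median 9.68) at D1, and from 8.98 to 10.48 (median 9.81) and from 11.62 to 13.79 (median 13.38) at D180, where the groups were apart. Its interaction was 3.05 ± 0.43 (limma adjusted p = 5.44e-05, or 3.57 and 0.000695 under the block). Mt3, a metal-binding metallothionein, had effects of 0.37, 1.28 and 3.23 and an interaction of 2.86 ± 0.34 (limma adjusted p = 3.38e-06, or 3.5 and 0.000621 under the block). Bpifb1, a secreted protein of the airway epithelium, had 0.80, 1.62 and 2.80, with a vehicle difference of -1.65 from D1 to D180, and an interaction of 2.01 ± 0.47 (limma adjusted p = 0.01, or 2.11 and 0.222 under the block). Duox1, the hydrogen peroxide source of the airway surface, had 0.35, 1.07 and 1.5 and an interaction of 1.15 ± 0.34 (limma adjusted p = 0.0465, or 0.92 and 0.463 under the block).

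Complement genes were called at D180 and seldom at D1. Of 23 tested, 1 was higher at D1, 3 at D30 and 10 at D180, against 2.02%, 0.915% and 2.86% of all genes. The list medians were 0.30, 0.36 and 0.82. The interaction was called for 6 of the 23, all more positive at D180, against 1.16% of all genes. One of these was still called under the scan date block. Serping1, the C1 inhibitor, ran from 14.14 to 14.42 (median 14.33) and from 14.26 to 14.44 (median 14.35) at D1, where the groups overlapped, and from 14.07 to 14.31 (median 14.13) and from 15.06 to 15.55 (median 15.23) at D180, where they did not. The effects were 0.02, 0.54 and 1.13, and the interaction was 1.11 ± 0.12 (limma adjusted p = 1.55e-06, or 1.19 and 0.00151 under the block).

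Cfb, factor B of the alternative pathway, ran from 13.86 to 14.16 (median 14.04) and from 13.49 to 14.40 (median 14.11) at D1, and from 13.32 to 13.64 (median 13.61) and from 14.36 to 15.70 (median 15.04) at D180. The DQ-12 rats of D1 lay on both sides of the vehicle rats and those of D180 all lay above them. The interaction was 1.47 ± 0.22 (limma adjusted p = 9.73e-05), with 1.27 and an adjusted p of 0.102 under the block. C2, its counterpart in the classical pathway, had effects of -0.09, 0.18 and 1.21 and an interaction of 1.30 ± 0.28 (limma adjusted p = 0.00459, or 1.29 and 0.155 under the block). The paralogs C4a and C4b, whose probes may share transcripts, had 0.10 and -0.11 at D1 and 1.22 and 1.04 at D180. C3, the central component, was higher at all 3 times (1.08, 2.04 and 1.83), and its interaction of 0.75 ± 0.22 (limma adjusted p = 0.0467) was below the size threshold.

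Of 20 genes of a B and plasma cell list, 1 was higher at D1, 2 at D30 and 5 at D180, against 2.02%, 0.915% and 2.86% of all genes. Jchain, Mzb1 and Tnfrsf17 had called interactions, all more positive at D180, against 1.16% of all genes. Jchain, the joining chain of secreted IgA and IgM, ran from 10.79 to 11.87 (median 11.40) in the vehicle rats and from 10.14 to 11.67 (median 10.73) in the DQ-12 rats at D1, and from 11.98 to 13.82 (median 12.85) and from 13.91 to 15.94 (median 15.11) at D180. At D1, 3 DQ-12 rats lay below all vehicle rats, and at D180 all 6 lay above them. The vehicle rats themselves were 1.47 higher at D180 than at D1. The interaction was 2.81 ± 0.43 (limma adjusted p = 0.000126, or 2.19 and 0.0591 under the block).

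Mzb1, a chaperone of antibody secretion, had effects of -0.31, 0.68 and 2.05 and an interaction of 2.36 ± 0.32 (limma adjusted p = 3.57e-05, or 1.96 and 0.0408 under the block). Tnfrsf17, the plasma cell survival receptor BCMA, had -0.86, 0.97 and 2.13 and an interaction of 2.99 ± 0.67 (limma adjusted p = 0.00762, or 1.88 and 0.507 under the block), and 1 vehicle rat of D1 stood at 8.51 against a group median of 5.4. Outside the list, the immunoglobulin genes Igh-6 and Igkv28 had interactions of 2.90 ± 0.45 and 3.00 ± 0.71 (limma adjusted p = 0.000173 and 0.0113), and neither was called under the block (1.56 and 1.53). Signals of immunoglobulin genes can include related family members. The surface B cell gene Ms4a1, encoding CD20, had effects of -0.53 and 0.19 and no called interaction (0.72 ± 0.28, limma adjusted p = 0.137). The mean log2 signal of the B and plasma cell list at D180 ran from 8.56 to 8.78 in the vehicle rats and from 8.91 to 9.50 in the DQ-12 rats, against 8.31 to 8.95 and 8.35 to 8.79 at D1.

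Lists of T cell and interferon-stimulated genes gave a few calls each. Of 21 T cell genes, Il2ra and Pdcd1 had called interactions, both more positive at D180, against 1.16% of all genes. Il2ra, the high-affinity interleukin-2 receptor chain, had effects of 0.12 and 1.36 and an interaction of 1.24 ± 0.26 (limma adjusted p = 0.00457, or 1.51 and 0.108 under the block). Cd3e, a chain of the T cell receptor complex, had 0.17 and 0.22 and an interval of the interaction from -0.57 to 0.68. Of 22 interferon-stimulated genes, 1 was higher at D1 and 7 at D180, against 2.02% and 2.86% of all genes. The guanylate-binding proteins Gbp2 and Gbp5 had called interactions of 1.23 ± 0.31 and 1.35 ± 0.33 (limma adjusted p = 0.0157 and 0.0134). Neither of these 2 was called under the block.

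Several CC chemokine genes, whose products attract monocytes and other leukocytes, were called at both ends. Of 14 CC chemokine genes, 7 were higher at D1 and 8 each at D30 and D180, against 2.02%, 0.915% and 2.86% of all genes. The list medians were 0.82, 1.39 and 1.71. The interaction was called more positive for 4 (Ccl1, Ccl2, Ccl7 and Ccl9) and more negative for Ccl11, against 1.16% and 0.393% of all genes. Under the block 1 of the 14 was called at D1 and 1 for the interaction.

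Ccl2, the main attractant of monocytes, ran from 8.75 to 10.00 (median 9.52) in the vehicle rats and from 11.57 to 12.42 (median 12.15) in the DQ-12 rats at D1, and from 8.47 to 8.98 (median 8.85) and from 12.82 to 14.23 (median 13.18) at D180. The groups did not overlap at either time. The effects were 2.56, 2.80 and 4.54, and the interaction was 1.98 ± 0.35 (limma adjusted p = 0.000633, or 2.55 and 0.0364 under the block). Ccl7, a close relative with the same receptor, had 2.78, 3.34 and 4.8 and an interaction of 2.02 ± 0.53 (limma adjusted p = 0.0214, or 2.97 and 0.116 under the block). Ccl1, a ligand of the receptor CCR8, was above background on none of the vehicle arrays, and its signal was at least 1.986-fold higher in the DQ-12 rats at D1, at least 13.83-fold at D30 and at least 26.05-fold at D180. Ccl11, the eosinophil attractant eotaxin, moved the other way, with effects of 0.42 and -0.64 and an interaction of -1.06 ± 0.32 (limma adjusted p = 0.0473, or -0.59 and 0.683 under the block), and a vehicle difference of -1.21 from D1 to D180. Ccl22, a ligand of the receptor CCR4, was of equal size, with 1.58, 1.59 and 1.76.

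Of 11 neutrophil-attracting chemokine genes, 1 was higher at D1, 4 at D30 and 4 at D180, against 2.02%, 0.915% and 2.86% of all genes. The median interaction was 0.16. Cxcl1 and Cxcl3 had called interactions, against 1.16% of all genes called more positive, and neither was called under the block. Cxcl1 ran from 10.96 to 11.92 (median 11.61) in the vehicle rats and from 10.27 to 11.53 (median 10.57) in the DQ-12 rats at D1, and from 10.13 to 11.65 (median 11.14) and from 11.34 to 12.75 (median 11.87) at D180. At D1, 4 DQ-12 rats lay below all vehicle rats, and at D180, 4 lay above them. The effects were -0.76, 1.17 and 0.89, and the interaction was 1.65 ± 0.38 (limma adjusted p = 0.00826, or 1.39 and 0.328 under the block). Cxcl3 had -0.31, 1.28 and 1.23 and an interaction of 1.55 ± 0.43 (limma adjusted p = 0.0313, or 1.83 and 0.145 under the block).

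Of 20 genes expressed by neutrophils, 3 were higher at D1, 4 at D30 and 9 at D180, against 2.02%, 0.915% and 2.86% of all genes. The interaction was called for 3, all more positive, against 1.16% of all genes. Under the scan date block none was called at D1 or for the interaction. The mean log2 signal of the 20 neutrophil genes ran from 6.78 to 7.06 in the vehicle rats and from 7.20 to 7.76 in the DQ-12 rats at D1, and from 6.67 to 7.17 and from 7.84 to 8.23 at D180, with no overlap at either time. S100a9, the calprotectin subunit, ran from 12.35 to 13.54 (median 12.66) and from 12.71 to 13.93 (median 13.22) at D1, with 1 DQ-12 rat above all vehicle rats, and from 12.39 to 13.25 (median 12.69) and from 15.17 to 15.66 (median 15.29) at D180, with all 6 above. Its interaction was 2.17 ± 0.36 (limma adjusted p = 0.000304, or 1.51 and 0.262 under the block). Cd177, a neutrophil surface glycoprotein, had effects of 1.23, 3.19 and 2.83 and an interaction of 1.61 ± 0.30 (limma adjusted p = 0.00137, or 1.48 and 0.142 under the block). Csf3r, the receptor for the neutrophil growth factor G-CSF, was of equal size, with 1.41 and 1.11 and an interval from -0.99 to 0.38.

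Mmp12, the macrophage elastase, was raised at both ends and more so at D180. It ran from 5.87 to 7.41 (median 6.10) in the vehicle rats and from 9.25 to 10.41 (median 9.60) in the DQ-12 rats at D1, and from 6.26 to 7.11 (median 6.43) and from 10.78 to 12.33 (median 11.41) at D180. There was no overlap at either time, and the interaction was 1.56 ± 0.41 (limma adjusted p = 0.0233, or 2.58 and 0.0559 under the block). Gpnmb, a glycoprotein of lipid-laden macrophages, had effects of 1.29, 1.5 and 2.36 and an interaction of 1.07 ± 0.26 (limma adjusted p = 0.0132, or 1.49 and 0.0576 under the block). Slc7a11, the cystine importer that feeds glutathione synthesis, had 1.6, 2.05 and 3.25 and an interaction of 1.65 ± 0.38 (limma adjusted p = 0.00956, or 1.84 and 0.12 under the block). Mmp14, a membrane-bound collagenase, was chronic-only, with 0.22, 0.63 and 1.35 and an interaction of 1.12 ± 0.17 (limma adjusted p = 0.000161, or 1.41 and 0.0199 under the block).

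Spp1, which encodes osteopontin, changed more than any of these and could not be placed. Its log2 signals ran from 2.43 to 6.41 (median 4.57) and from 10.66 to 12.35 (median 11.73) at D1, and from 4.20 to 6.86 (median 4.66) and from 12.0015 to 13.93 (median 13.03) at D180. The effects were 6.99, 5.14 and 7.87, and the interval of the interaction, from -0.71 to 2.45, held both an equal and a more than 2-fold larger effect at D180.

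Promoters of Ccl7 and Gpnmb are shown as examples of genes larger at D180 that matched a pattern for AP-1, the Fos and Jun transcription factor. The pattern (TGANTCA, either strand) is looser than a strict consensus. It allows any middle base, which is T in the Ccl7 match and G in that of Gpnmb. Of the 14 genes larger at D180 found in the promoter table, 5 held it in the 250 bases before the start (35.7%). These were Ccl7, Dmkn, Gpnmb, Mmp12 and Orm1. The pattern stood before 6.36% of all 27457 promoters and 7 of 92 chronic-only genes that were higher (7.61%). Of the 7 motifs searched, that of NF-kappaB stood before 3 of the 14 (21.4%), against 3.52% of all promoters. The sequences follow the same conventions, with the match in capitals.
Ccl7 (chr10:67513945-67514094, plus strand): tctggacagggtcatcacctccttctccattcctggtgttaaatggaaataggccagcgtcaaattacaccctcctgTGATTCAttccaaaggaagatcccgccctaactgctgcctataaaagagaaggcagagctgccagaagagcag
Gpnmb (chr4:79340978-79341127, plus strand): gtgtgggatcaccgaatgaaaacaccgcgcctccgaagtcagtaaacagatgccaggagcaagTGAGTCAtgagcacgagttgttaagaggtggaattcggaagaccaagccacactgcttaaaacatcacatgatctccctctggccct

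Of 20 genes for acute-phase proteins, 7 were higher at D1, 9 at D30 and 11 at D180, against 2.02%, 0.915% and 2.86% of all genes. The interaction was called more positive for 4, against 1.16% of all genes. It lay above 0 for 14 of the 20, against 11149 of all 23940 genes. Under the block 1 was called. Orm1, the acute-phase orosomucoid, had effects of 5.02 at D1 and 7.51 at D180, was at least 8.664-fold higher at D30, where no vehicle array was above background, and had an interaction of 2.49 ± 0.75 (limma adjusted p = 0.048, or 2.67 and 0.344 under the block), and its vehicle signal was above background on 6 arrays at D1 and on 2 at D180. Hp, the haemoglobin-binding haptoglobin, had 0.17, 1.05 and 1.5 and an interaction of 1.32 ± 0.23 (limma adjusted p = 0.000514, or 1.14 and 0.13 under the block). Itih3, a hyaluronan-binding inhibitor chain, had -0.02, 1.30 and 2.15 and an interaction of 2.16 ± 0.31 (limma adjusted p = 5.23e-05, or 2.47 and 0.0116 under the block). Fetub, a fetuin with a protease inhibitor domain, was of equal size, with 1.13, 1.05 and 1.34 and an interval from -0.19 to 0.61.

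Il1rn encodes the antagonist of the interleukin-1 receptor and was the only called interaction among 16 genes of the interleukin-1 family and inflammasome. Its log2 signals ran from 10.81 to 11.39 (median 11.14) and from 11.91 to 12.31 (median 12.16) at D1, and from 10.41 to 11.14 (median 10.96) and from 13.16 to 13.92 (median 13.36) at D180, and the groups were apart at both times. The effects were 0.98, 1.13 and 2.57, and the interaction was 1.59 ± 0.22 (limma adjusted p = 4.91e-05, or 1.82 and 0.0191 under the block). Osm, the interleukin-6 family cytokine oncostatin M, was of equal size, with 1.66, 1.12 and 1.77 and an interval from -0.48 to 0.69, and no gene of that family's list of 15 had a called interaction.

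The chitinase-like genes split. Chia, the acidic mammalian chitinase, had effects of 0.97, 2.09 and 3.79 and an interaction of 2.81 ± 0.38 (limma adjusted p = 2.7e-05, or 2.06 and 0.0941 under the block), with a vehicle difference of -1.29 from D1 to D180. Chi3l1, a chitinase-like protein without enzyme activity, was of equal size. It ran from 9.58 to 10.11 (median 9.72) and from 11.55 to 12.10 (median 11.70) at D1, and from 9.37 to 10.01 (median 9.59) and from 11.54 to 12.46 (median 11.88) at D180, apart at both times. The effects were 1.95, 1.89 and 2.29, and the interval of the interaction ran from -0.19 to 0.87.

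Among the 9 genes of equal size that were lower, Tac1 had the largest fall. It encodes substance P, a neuropeptide of sensory nerves. Its log2 signals ran from 7.6 to 8.62 (median 8.14) in the vehicle rats and from 5.51 to 6.68 (median 6.43) in the DQ-12 rats at D1, and from 8.77 to 9.54 (median 9.39) and from 6.54 to 7.82 (median 7.64) at D180. All DQ-12 rats lay below all vehicle rats at each end, with effects of -1.87, -1.38 and -1.91 and an interval of the interaction from -0.69 to 0.61, although both groups were higher at D180. Serpinb10, an intracellular protease inhibitor of blood cells, had -1.86, -0.96 and -1.74 and an interval from -0.72 to 0.97.

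Klk13 and Plet1 changed direction. Klk13, a kallikrein protease, ran from 5.87 to 6.21 (median 6.06) in the vehicle rats and from 2.78 to 6.19 (median 4.97) in the DQ-12 rats at D1, and from 5.54 to 6.18 (median 5.92) and from 7.58 to 7.96 (median 7.90) at D180. At D1, 4 DQ-12 rats lay below the vehicle rats, and at D180 all 6 lay above them. The effects were -1.09, 2.17 and 1.94, and the interaction was 3.03 ± 0.52 (limma adjusted p = 0.0006, or 2.90 and 0.115 under the block). Plet1, a surface protein of epithelial progenitors, had -1.0, 1.02 and 1.12 and an interaction of 2.12 ± 0.42 (limma adjusted p = 0.00234, or 2.45 and 0.0401 under the block). Pcdhb3 and Cyp2c11 changed in the opposite sense but were above background on no more than 5 arrays of any of the 4 groups.

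**Figure D4:**
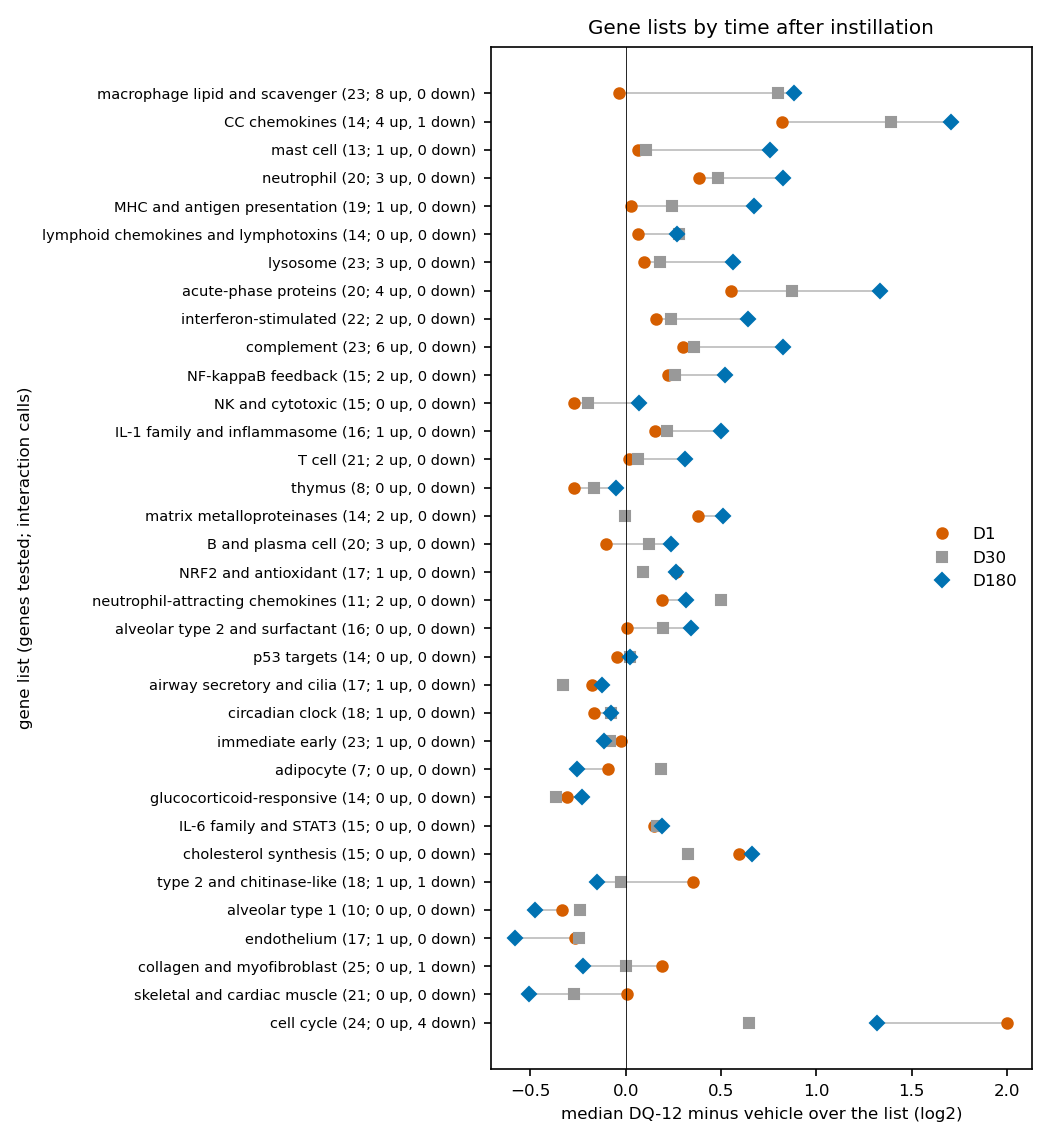
Median DQ-12 minus vehicle difference (x axis, log2) over the tested genes of each list (y axis, ordered by the median interaction) at D1 (orange), D30 (grey) and D180 (blue); brackets give the genes tested and the interactions called more positive (up) and more negative (down). The cell cycle list has the largest median at D1 and loses part of it by D180, while the macrophage lipid and CC chemokine lists lie farther right at D30 and D180.

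Many lists gave no called interaction, which for lists of 7 to 21 genes is near the share of 1.55% called over all genes. None was called among the genes for alveolar type 1 cells (10 tested), alveolar type 2 cells and surfactant (16), natural killer and cytotoxic cells (15), lymphoid chemokines (14), glucocorticoid response (14), cholesterol synthesis (15), p53 targets (14), interleukin-6 family and STAT3 (15), adipocytes (7), thymus (8) and skeletal and cardiac muscle (21). All 21 muscle genes had an interaction below 0, with a median of -0.65, in the direction of the muscle-rich arrays named above. The endothelial list of 17 had 1 call, Selp, and a median of -0.26 at D1 and -0.58 at D180. Single calls, more positive at D180, came from the lists for antigen presentation (RT1-Bb, 1 of 19), immediate early genes (Egr2, 1 of 23), the circadian clock (Bhlhe41, 1 of 18), antioxidant genes (Slc7a11, 1 of 17) and airway cells (Duox1, 1 of 17). The NF-kappaB feedback list of 15 gave Tnfaip2 and Bcl3, of which Tnfaip2, induced by tumour necrosis factor, had effects of -0.58 at D1 and 1.17 at D180 and an interaction of 1.76 ± 0.22 (limma adjusted p = 7.73e-06, or 1.48 and 0.0621 under the block). The type 2 list of 18 gave Chia and, in the other direction, Cd163, a haemoglobin scavenger receptor with effects of 0.11 and -0.89. The mast cell list of 13 had 1 call, the tryptase gene Tpsab1, with effects of 0.05, 0.11 and 1.57 and an interaction of 1.52 ± 0.44 (limma adjusted p = 0.0378, or 0.74 and 0.778 under the block).

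The exposure effect at D30, which was no criterion of the classes, is given for each class, although the 12 arrays shared the model's estimate of spread. With the 24 arrays of D1 and D180 alone there were 290 called interactions and 39 acute-only, 130 chronic-only and 57 equal genes. At that time 219 genes were called higher (0.915%) and 33 lower (0.138%). None of the 50 acute-only genes was called in its D1 direction. That sign was kept by 15 of the genes that had been higher and 14 of those that had been lower, and the medians were 0.07 for the 25 that had been higher and -0.02 for the 25 that had been lower. Of the 146 chronic-only genes that were higher, 46 were called higher at D30 (31.5%), 140 had the same sign, and the median was 0.84, between -0.02 at D1 and 1.56 at D180. None of the 12 that were lower was called.

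Among the 53 higher genes of equal size, 20 were called at D30 (37.7%) and 52 had the same sign, but their median of 0.82 was below both ends (1.45 at D1 and 1.37 at D180). The 20 genes larger at D180 were called at D30 for 17, with a median of 2.25 between 1.51 and 3.6. Of the 7 genes larger at D1, 1 was called, with a median of 0.71 below both ends (2.66 and 1.43).

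**Figure D5:**
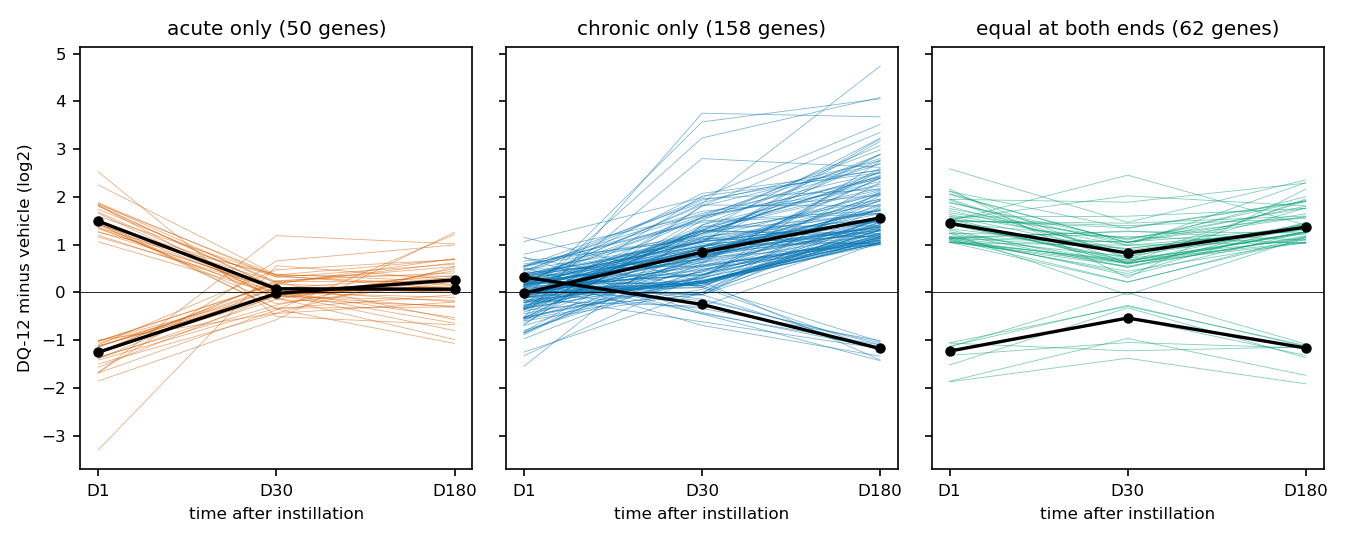
DQ-12 minus vehicle difference (y axis, log2) of each acute-only, chronic-only and equal-size gene (thin lines) at D1, D30 and D180 (x axis); black lines and points are the medians of the genes that were higher and of those that were lower. The acute-only medians are near 0 at D30, the higher chronic-only genes are about midway at 0.84, and the equal-size genes dip at D30.

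The class of a gene near a threshold is a matter of small differences. The acute-only rule left 15 of the 25 higher genes and 14 of the 25 lower genes with an interval at D180 inside a 2-fold change, so that for the others an effect of that size at D180 was not shown to be absent. Among the 146 higher chronic-only genes, 99 had such an interval at D1. Fabp4 (0.88) and Cfi (0.95) were called for the interaction and at D180 but had an adjusted p of 0.0131 and 0.0473 at D1, and lay just outside the chronic-only class. Ccl9, with 0.55 at D1, an adjusted p there of 0.111 and an interaction of 1.11 (limma adjusted p = 0.0478), lay just inside.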

How the data were processed

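Total RNA of 36 accessory lung lobes was hybridised to 1-colour Agilent arrays, and per the file headers the authors extracted spot intensity with Agilent Feature Extraction 12.0.1.1 (gProcessedSignal, background-subtracted). The deposited log2 values of the same arrays (array medians -0.153 to 0.228) matched scanner values scaled to each array's 75th percentile and centred per probe, with a median absolute difference of 0.00173, and served as an alternative. How the authors scaled them is not given in the sources used here. The study's methods name a batch correction, whose variable is not given in the sources used here, and none was applied in the main fit.

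Outlier spots (232 to 596 per array) were dropped, spots of a probe averaged, probes kept above the 95th percentile of 308 negative controls on at least 6 arrays, log2 values quantile normalized, and the brightest probe taken per gene name (23940 genes; 7743 with several probes). limma 3.58.1 in R 4.3.3 fitted 6 group means over all 36 arrays (lmFit, eBayes, Benjamini-Hochberg). The number of arrays limits the precision. Calls needed an adjusted p under 0.05 and a 2-fold difference. Named genes were the 8 largest changes per class and per direction among genes above background on at least 3 arrays in all 4 groups, up to 4 dimmer ones per class, and list genes. Members and lists were chosen with earlier results of these data known. The scripts were tested on simulated data. Alternatives covered scan date, slide and replicate blocks, normalization, background, filters, probe choice, thresholds and each rat left out.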

Additional observations from a re-analysis of the deposited data

Results flagged for a closer look

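The difference between the exposure effects at D180 and D1 was itself tested for every gene, and 278 genes were more positive and 94 more negative at D180. Among the named genes with a called difference, the values were 4.53 for Lpo, 3.56 for Vsig4, 3.05 for Ubd, 3.03 for Klk13, 3.00 for Igkv28, 2.99 for Tnfrsf17, 2.90 for Igh-6 and 2.87 for Trem2 on the log2 scale. In the other direction they were -4.44 for Mrpl43, -3.20 for Celf4, -2.21 for Tnc, -1.86 for Psapl1, -1.78 for Mybl1, -1.74 for Pbk, -1.73 for Prom2 and -1.66 for Slc5a1.

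In 164 groups of 6 arrays tested for an array far from the others, 19 had one, and chance flags about 1 in 20 groups. DQ-12 replicate 2 of D1 was the lowest of its group for Parpbp (4.935, nearest 6.43), Mnd1 (6.49, nearest 7.16), Cks2 (9.41, nearest 10.34), Rrm2 (11.77, nearest 12.69) and Tnfrsf17 (2.81, nearest 4.74). DQ-12 replicate 6 of D1 was the highest for Vsig4 (8.54, nearest 5.69) and Ubd (10.57, nearest 9.71). DQ-12 replicate 5 of D180 was the lowest for Klk13 (7.575, nearest 7.83) and Slc5a1 (2.15, nearest 4.43) and the highest for Prom2 (7.08, nearest 6.34).

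Among the vehicle rats of D1, Parpbp was low in replicate 4 (2.70, nearest 4.12), Tnfrsf17 high in replicate 6 (8.51, nearest 5.85) and Psapl1 high in replicate 3 (6.40, nearest 4.94). Among those of D180, Vsig4 was low in replicate 3 (6.13, nearest 8.90), Ube2t low in replicate 5 (4.375, nearest 5.20) and Pbk high in replicate 5 (6.74, nearest 4.86).

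The mean log2 signal of the muscle list was high in DQ-12 replicate 5 of D1 (9.45, nearest 7.94) and in vehicle replicate 5 of D180 (9.97, nearest 7.75). The mean of the T cell list was low in vehicle replicate 2 of D180 (7.71, nearest 8.03).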

How the results depend on the processing

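Scan date as a fixed block called 107 interactions (97 more positive, 10 more negative), 176 genes at D1, 20 acute-only, 55 chronic-only and 10 equal genes. Slide as a fixed block turned the balance of directions, with 103 more positive and 155 more negative interactions, and gave 199 genes at D1, 488 at D180, 23 acute-only and 3 equal genes, and turned the sign of Psrc1 (0.15), Psapl1 (0.097) and S100a8 (-0.49). As a random block, scan date gave 243 interactions (48 more negative), 404 genes at D1 and 23 acute-only genes, and slide 54 more negative interactions, 483 genes at D1 and 31 acute-only genes. Restricting the fit to scan dates with both groups, chosen after seeing the data, gave 65 interactions (61 and 4), 143 genes at D1, 24 acute-only, 28 chronic-only and 6 equal genes. Interactions more negative at D180 numbered 59 with 75th percentile scaling and 60 with the deposited log2 values. Normexp background correction gave 190 interactions (168 and 22), 214 genes at D1, 326 at D180, 9 acute-only, 92 chronic-only and 36 equal genes. With it, 23 of the 146 higher chronic-only genes of the main fit were called higher at D30. The cause was not tested for any of these settings.

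An adjusted p alone gave 1089 interactions (623 and 466), 3877 genes at D1, 4026 at D180, 354 acute-only, 545 chronic-only and 1040 equal genes. A 1.5-fold threshold gave 858 interactions (532 and 326), 1842, 2307, 173, 392 and 306. limma's treat test against 2-fold gave 5 interactions (5 and 0), 91 genes at D1, 133 at D180, 0 acute-only, 5 chronic-only and 7 equal genes. With it, 4 of the 146 higher chronic-only genes of the main fit were called higher at D30. An interval within 1.5-fold left 4 equal genes.

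With each rat left out in turn, interactions ranged from 308 to 460 (more positive 237 to 354, more negative 69 to 132), genes at D1 from 581 to 955, at D180 from 777 to 1029, acute-only genes from 36 to 94, chronic-only from 133 to 214 and equal from 58 to 69. Of the 146 higher chronic-only genes of the main fit, 45 to 47 were called higher at D30. The 94 acute-only genes came without vehicle replicate 3 of D1. Same-numbered rats share only a number (correlations of deviations -0.125 to 0.26, 5 of 24 over 0.1), and a replicate block gave 392 interactions. For named genes, 111 values were followed: interactions, or the effects at D1 and D180 for genes of equal size. Of their 1879 values under the other settings, 1401 kept direction and call, 475 kept direction only and 3 turned. The settings differed widely. Direction and call were kept by 37 of the 111 with scan date and by 19 with slide as a fixed block. They were kept by 30 on scan dates with both groups and by 17 with the treat test. As random blocks, scan date kept 86 and slide 89. An adjusted p alone and the 1.5-fold threshold used the same fit with a looser rule, so no call could be lost there (111 of 111 kept in each). The genes were also chosen from these same arrays. A group in which no array detected the gene allows a bound only.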
